A study of Mus musculus with 2 samples.

Results

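The respiratory chain genes of the nucleus were compared between 2 stretches of the mouse aorta. Their probes were chosen by name: gene spots named Nduf, Sdha to Sdhd, Uqcr, Cyc1, Cox4 to Cox8 or Atp5 on both arrays, without Cox7a1 and Cox8b. This gave 74 genes on 109 probes, of 29273 named genes on 41174 probes. Complex I had 30 of them, complex II 4, complex III 7, complex IV 16 and complex V 16, and 1 further gene, Ndufaf1, encodes an assembly factor of complex I. A gene was compared through its brightest unsaturated probe that Feature Extraction, the scanner software, called well above background. So 73 of the 74 were compared, of 23811 genes in all, and 0 of the 73 had a saturated reading on the probe used. Cox8c, an isoform gene of complex IV best known from testis, was not well above background in any reading and has no ratio.

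The arch pool came from a stretch prone to atherosclerosis, made up of the root, the aortic arch and 2 mm of thoracic aorta next to it. The thoracic pool came from the adjoining 6 mm, a stretch resistant to it. Both came from the same 6 apoE-/- mice, which lack apolipoprotein E (3 males and 3 females, 16 weeks old), and no wild-type animals were part of the comparison. The vessels were perfused with Triton X-100 against the endothelium, 12 µl of extract per mouse were pooled, and RNA integrity numbers lay between 7.5 and 7.7. Each of 2 two-colour arrays carried both pools, with the arch pool in Cy3 and the thoracic pool in Cy5 on array 1 and the dyes exchanged on array 2. Since the pools were the same on both, the arrays count as 1 replicate. Each ± is therefore the SD between the 2 arrays (technical, n = 2 arrays), the variation among mice is unknown, and p-values cannot be given. Within a pool of whole wall, fewer cells of a type and less RNA per cell cannot be told apart.

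Gene spots numbered 41534 per array, and 76.5% to 82.6% of them were well above background in a given pool and array. Median signals ran from 132.4 to 142.2, and negative controls averaged 77.0 to 97.1. Precision is limited by having 2 arrays and, for dim probes, by their nearness to background. All 8 smooth muscle markers were well above background in both pools, with a median log2 ratio of arch over thoracic of 0.06 and 0 of 8 were apart by 1.2-fold or more the same way on both arrays. All 6 endothelial markers and all 8 macrophage markers were also well above background in both pools, and 5 of the 6 and 6 of the 8 were higher by 1.2-fold or more in the arch pool on both arrays. Those that did not pass were Pecam1 (0.09) of the endothelium and Emr1 (-0.06) and Csf1r (0.07) of macrophages. The summed macrophage signal was 46290.6 and 45634.5 in the arch pool, against 16996.0 and 17793.9 in the thoracic pool. Of this, Ctss alone had 24198.8 and 23947.9 in the arch pool, against 10236.5 and 11014.0 in the thoracic pool. The summed endothelial signal was 1903.8 and 1919.6 in the arch pool, against 1105.2 and 1063.0 in the thoracic pool. The part of these cells in the ratios that follow was not tested.

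The respiratory chain carries electrons from NADH and succinate to oxygen across the inner mitochondrial membrane, and ATP synthase uses the proton gradient this builds. Complex I oxidises NADH, complex II oxidises succinate, complex III passes electrons from ubiquinol to cytochrome c, complex IV passes them to oxygen and complex V makes ATP. Most subunits are encoded in the nucleus and a few in mitochondrial DNA. Contractile tissues such as heart and muscle use isoforms of some complex IV subunits that many other tissues make little of.

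Most of these genes were close to level between the segments. The median log2 ratio of arch over thoracic was -0.08 over the 73 genes, with 32 above 0 and 41 below, against -0.01 over all genes compared, with 11277 above and 12534 below. Of the 73, 79.5% differed by less than 1.2-fold, against 90.0% of all genes. Between the arrays the median SD was 0.04, and 65 of 73 genes had the same sign on both. Across these genes, which share both arrays and both pools, the ratios of array 1 and array 2 correlated with Pearson's r of 0.89 and Spearman's rho of 0.87 (n = 73), and with 0.84 and 0.87 without Cox6a2 (n = 72).

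By the 2-fold rule, which asks for 2-fold or more in the mean and 1.5-fold or more the same way on each array, 1 respiratory chain gene was higher in the arch pool and 0 were lower. The background was 0.454% of all genes for higher and 0.139% for lower. By the 1.2-fold rule, which asks for that size the same way on each array, 3 of 73 were higher (Cox6a2, Cyc1 and Cox5a), where 4.87% of all genes were, and 4 of 73 were lower (Cox7a2, Ndufb3, Uqcrb and Ndufa6), where 2.66% of all genes were. The share higher is near this background, but such shares were larger among bright genes, and most of the 73 are bright. In the brightest decile of all genes compared, 10.5% rose and 5.92% fell. Of the 58 respiratory chain genes in it, 1 rose and 4 fell. Beside that decile the count lower is near the background, and the count higher is below it. The same rules applied to the dyes in place of the segments were passed by 0 of the 73, and by 0 and 83 (0.349%) of all genes.

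**Figure D1:**
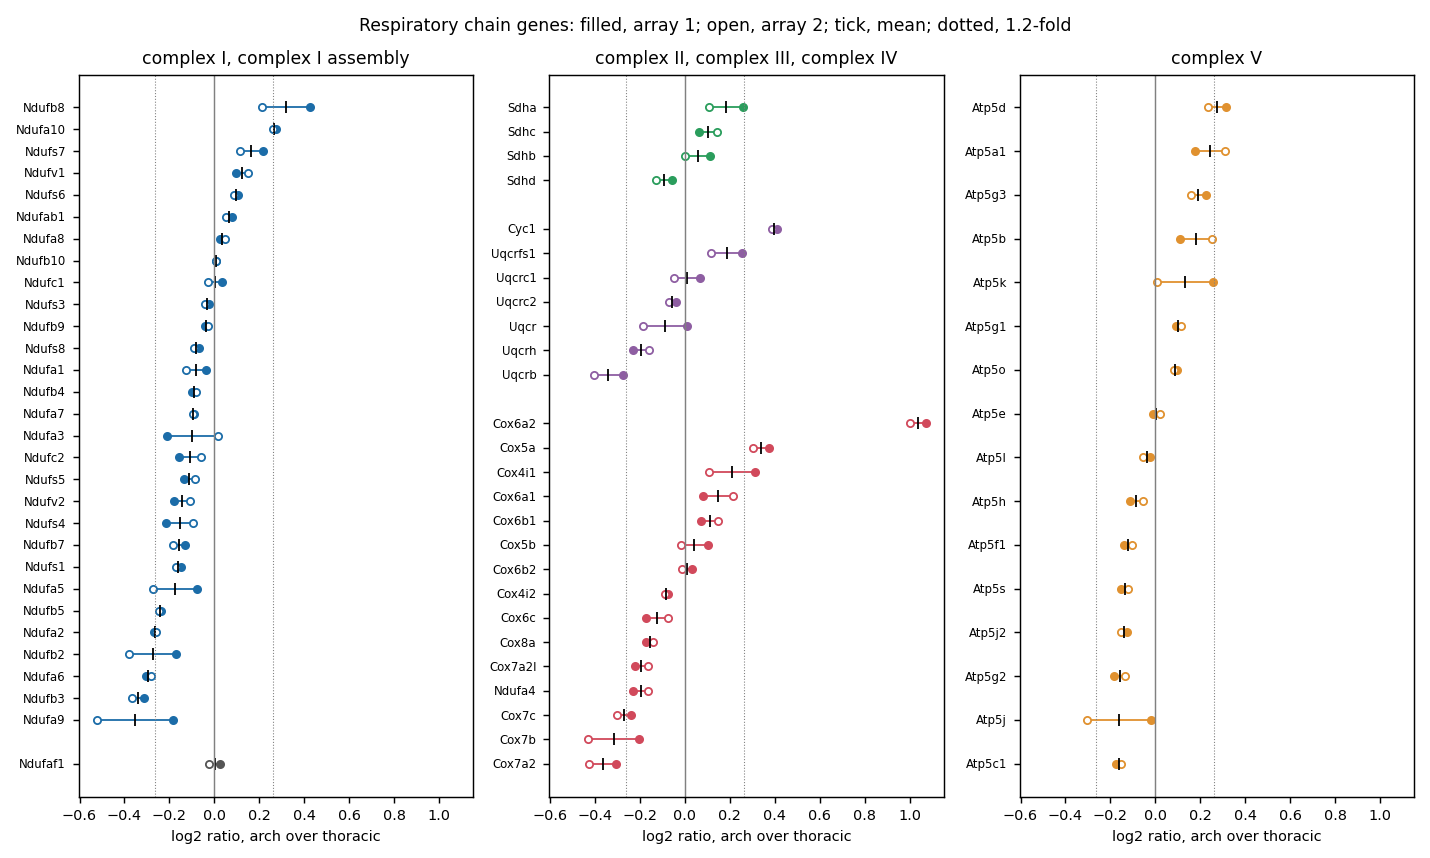
Log2 ratio of arch over thoracic for respiratory chain genes, by complex, with array 1 filled, array 2 open, the mean as a tick and dotted lines at 1.2-fold either way. Cox6a2 stands alone near 1, and both arrays lie beyond a dotted line for 3 genes on the right and 4 on the left.

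Promoter windows of 300 bases around the annotated start were used for 60 of the 74 genes, from RefSeq on assembly GRCm38.p6. The genes without a window include Cox6a2, Cyc1, Uqcrb, Cox4i1, Cox4i2, Cox6c, Cox8c, Atp5a1, Ndufa2, Ndufb9, Ndufs1, Sdhc and Uqcrc2. They were searched on both strands for letters bound by 3 factors known for respiratory chain promoters: GCATGCGC for NRF1, CCGGAAG for ETS factors such as GABP and AAGATGGC for YY1. NRF1 letters were in 9 of the 60 (15.0%) and in 3.05% of all 27025 genes with a window. ETS letters were in 16 (26.7%), against 9.93%, and YY1 letters in 10 (16.7%), against 3.19%. Any of the 3 was in 29 (48.3%), against 14.9%. A match is a description of the letters and not a site. The median ratio was 0.01 for the 9 genes with NRF1 letters and -0.09 for those without, -0.06 and -0.09 for ETS, and -0.11 and -0.08 for YY1.

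Windows are shown of 4 genes that mark the ends of the range or an isoform pair: Ndufb8 and Ndufa9, the highest and the lowest gene of complex I; Cox7a2, the lowest gene of all; and Cox6a1, the common partner of Cox6a2. Capitals mark the searched letters, in reverse complement where they lie on the other strand. Ndufb8 lies at chr19:44555393-44555692, Ndufa9 at chr6:126849095-126849394, Cox7a2 at chr9:79759804-79760103 and Cox6a1 at chr5:115348909-115349208, each on the minus strand and printed 5′ to 3′ along the gene.
Ndufb8: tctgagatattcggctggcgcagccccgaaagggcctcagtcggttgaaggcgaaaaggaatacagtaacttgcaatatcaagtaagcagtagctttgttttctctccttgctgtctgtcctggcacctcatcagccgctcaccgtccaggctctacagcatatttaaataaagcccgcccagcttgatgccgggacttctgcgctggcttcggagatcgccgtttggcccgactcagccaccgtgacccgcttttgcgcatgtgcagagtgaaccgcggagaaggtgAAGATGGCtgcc
Ndufa9: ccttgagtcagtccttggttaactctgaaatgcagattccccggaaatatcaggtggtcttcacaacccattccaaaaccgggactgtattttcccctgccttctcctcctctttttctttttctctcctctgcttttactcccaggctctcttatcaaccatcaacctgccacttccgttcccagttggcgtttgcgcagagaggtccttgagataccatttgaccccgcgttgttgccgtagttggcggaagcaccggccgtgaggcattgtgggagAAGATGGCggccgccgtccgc
Cox7a2: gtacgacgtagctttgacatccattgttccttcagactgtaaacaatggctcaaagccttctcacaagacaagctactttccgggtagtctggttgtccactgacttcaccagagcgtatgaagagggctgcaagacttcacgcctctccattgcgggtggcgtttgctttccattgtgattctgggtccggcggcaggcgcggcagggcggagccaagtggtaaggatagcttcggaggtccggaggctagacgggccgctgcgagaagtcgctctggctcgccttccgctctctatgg
Cox6a1: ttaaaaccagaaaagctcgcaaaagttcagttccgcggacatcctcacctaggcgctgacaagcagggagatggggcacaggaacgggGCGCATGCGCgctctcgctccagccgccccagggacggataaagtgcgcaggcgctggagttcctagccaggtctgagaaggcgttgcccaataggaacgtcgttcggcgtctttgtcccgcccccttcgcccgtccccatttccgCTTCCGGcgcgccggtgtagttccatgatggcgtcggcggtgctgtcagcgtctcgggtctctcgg

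Ndufb8 and Ndufa9 both hold the YY1 letters AAGATGGC near the 3′ end of the window, although they stand at opposite ends of complex I in their ratios (0.32 and -0.35). Cox6a1 holds the NRF1 letters on both strands, overlapping in a single run, and ETS letters, and Cox7a2 holds none of the 3, which says only that these letters are not in this window.

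In complex I, 0 of 30 genes rose and 2 fell by the 1.2-fold rule. The median ratio was -0.09, with 10 genes above 0 and 20 below. The 7 genes of the catalytic core had a median of -0.03. Most of them encode subunits that carry the flavin or iron-sulphur clusters or bind quinone. Their ratios ran from -0.16 at Ndufs1, a subunit with several iron-sulphur clusters, to 0.16 at Ndufs7, which holds the last cluster before ubiquinone. The 23 accessory genes had a median of -0.10, with 7 above 0 and 16 below. With median centring the medians were -0.11 for the core and -0.25 for the accessory genes.

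Both genes that fell are accessory subunits. Ndufb3, a small membrane arm subunit, had signals of 4958.7 and 4507.6 in the arch pool on arrays 1 and 2, against 6154.9 and 5814.5 in the thoracic pool, a log2 ratio of -0.34 ± 0.04. Ndufa6, a subunit of the LYR family next to the quinone site, had 5289.5 and 5199.4 in the arch pool, against 6533.1 and 6330.4 in the thoracic pool (-0.29 ± 0.01). For both, each arch reading lay below each thoracic reading. This adds little to the rule that picked them, which asks for the same direction on each array. The share of all genes without such overlap was not counted.

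The extremes of complex I were less even between the arrays. Ndufa9, an accessory subunit at the junction of the arms, was lowest, with 2652.9 and 2130.9 in the arch pool, against 3014.5 and 3064.7 in the thoracic pool. Its log2 ratios were -0.18 on array 1 and -0.52 on array 2 (mean -0.35 ± 0.24), so it missed the rule on array 1. Ndufb8, a membrane arm subunit often used as a protein marker of complex I, whose promoter window holds the same YY1 letters as that of Ndufa9, was highest, with 10187.8 and 9564.7 in the arch pool, against 7575.4 and 8250.2 in the thoracic pool, a ratio of 0.43 and 0.21 on the arrays (mean 0.32 ± 0.15). Its second probe was far dimmer, with signals of 185.8 to 207.4, and gave -0.07. So the 2 probes of Ndufb8 lie on opposite sides of 0, and the median over probes was 0.13. Ndufa10 and Ndufa2, named here after their values were seen, lay at the limit on array 2. Ndufa10, a nucleoside kinase-like accessory subunit, had log2 ratios of 0.274 and 0.261 on arrays 1 and 2. Ndufa2, a thioredoxin-fold subunit, had -0.269 and -0.259, and the limit of 1.2-fold is 0.263 on this scale. The assembly factor gene Ndufaf1 had 370.1 and 359.0 in the arch pool, against 363.3 and 364.9 in the thoracic pool, a ratio of 0.00 ± 0.04.

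In complex II, the 4 subunit genes had a median of 0.08 and 0 of 4 passed the 1.2-fold rule. Sdha, the flavoprotein that oxidises succinate, had 671.0 and 609.1 in the arch pool, against 561.6 and 565.1 in the thoracic pool (0.18 ± 0.11). Sdhb, the iron-sulphur subunit, had 2708.3 and 2596.9 in the arch pool, against 2507.0 and 2593.8 in the thoracic pool (0.06 ± 0.08). The membrane anchors Sdhc and Sdhd pointed opposite ways. Sdhc had 1550.9 and 1593.3 in the arch pool, against 1484.6 and 1444.0 in the thoracic pool (0.10 ± 0.06). Sdhd had 4712.0 and 4718.9 in the arch pool, against 4908.5 and 5163.2 in the thoracic pool (-0.09 ± 0.05).

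In complex III, Cyc1 rose and Uqcrb fell by the 1.2-fold rule. Cyc1, cytochrome c1, which hands electrons to cytochrome c, had 1101.8 and 1142.4 in the arch pool, against 828.6 and 874.4 in the thoracic pool. Its log2 ratio of 0.40 ± 0.02 (1.32-fold) was almost the same on the arrays, 0.41 and 0.39. Uqcrb, a small subunit that helps form the ubiquinone site, had 7292.0 and 7017.7 in the arch pool, against 8835.4 and 9300.9 in the thoracic pool (-0.34 ± 0.09). Here too no arch reading overlapped a thoracic one in either gene, which again adds little to the rule that picked them.

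The other 5 genes of complex III did not pass the rule. The Rieske iron-sulphur protein gene Uqcrfs1, the second redox subunit of the nucleus, had 0.19 ± 0.10. The core protein genes Uqcrc1 and Uqcrc2 had 0.01 ± 0.08 and -0.06 ± 0.02. Of the other small subunits, Uqcrh had -0.20 ± 0.05 and Uqcr -0.09 ± 0.14. The complex had a median of -0.06, which was 0.01 on array 1 and -0.07 on array 2.

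In complex IV, 2 of 15 genes rose and 1 fell, and the median was -0.08, or -0.10 without Cox6a2. Cox6a2, the heart and skeletal muscle form of subunit VIa, had 424.5 and 423.2 in the arch pool, against 201.8 and 211.5 in the thoracic pool. The arch readings were 2.05-fold higher in the mean (log2 1.04 ± 0.05), and Cox6a2 was the gene that passed the 2-fold rule. Its ratio was 0.93 with no background subtraction, below that rule, 1.25 with offset 0 and 1.27 in the processed signals and in the series table. Cox6a1, the form found in most tissues, had 40655.5 and 40631.0 in the arch pool, against 38433.4 and 35054.7 in the thoracic pool, a ratio of 0.15 ± 0.09 that turned to -0.09 with median centring in place of loess.

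Cox5a, a subunit on the matrix side of the enzyme, rose as well. It had 6989.8 and 6876.9 in the arch pool, against 5395.5 and 5577.0 in the thoracic pool (0.34 ± 0.05, 1.26-fold). Cox7a2, the form of subunit VIIa made in most tissues, was the lowest of all 73 genes, with 5951.2 and 5616.6 in the arch pool, against 7356.0 and 7548.3 in the thoracic pool (-0.37 ± 0.09, or 1.29-fold higher in the thoracic pool). Its second probe gave -0.36. Every arch reading of Cox7a2 lay below every thoracic reading, and for Cox5a the reverse held. As above, this adds little to the rule that both genes passed.

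The forms of subunits VIIa and VIII known from muscle, Cox7a1 and Cox8b, are outside the named set, and their values are given beside it. Cox7a1 had 1751.9 and 1643.1 in the arch pool, against 982.6 and 960.6 in the thoracic pool (0.80 ± 0.04, 1.75-fold). Cox8b had 2867.6 and 2834.8 in the arch pool, against 1864.3 and 1877.9 in the thoracic pool (0.61 ± 0.02, 1.52-fold). Both passed the 1.2-fold rule and neither passed the 2-fold rule. The forms of the same subunits found in most tissues were not higher: Cox7a2 fell, and Cox8a had 18252.6 and 18933.8 in the arch pool, against 20551.2 and 20861.8 in the thoracic pool (-0.16 ± 0.02). Set against each other, the log2 ratios were 1.04 for Cox6a2 and 0.15 for Cox6a1, 0.80 for Cox7a1 and -0.37 for Cox7a2, and 0.61 for Cox8b and -0.16 for Cox8a.

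Subunits IV and VIb also have isoform pairs. Cox4i1, the common form of subunit IV, had 13525.5 and 11555.7 in the arch pool, against 10906.5 and 10714.8 in the thoracic pool (0.21 ± 0.14). Cox4i2, a form best known from lung, had 71.5 and 72.0 in the arch pool, against 75.3 and 76.6 in the thoracic pool (-0.08 ± 0.01). Its signals include the added offset of 50, so its ratio is pulled towards 0. With offset 0 it was -0.25, beside 0.19 for Cox4i1, and in the deposited processed signals -0.35, beside 0.20 for Cox4i1. Cox4i2 lay in the dimmest decile of all genes compared. Before correction the negative controls themselves averaged 77.0 to 97.1, against local backgrounds of 55 to 66. None of the ratios of Cox4i2 is therefore a firm measure. Cox6b1, the common form of subunit VIb, had 553.4 and 542.7 in the arch pool, against 526.1 and 490.1 in the thoracic pool (0.11 ± 0.05). Cox6b2, a form best known from testis, had 344.7 and 345.9 in the arch pool, against 337.1 and 348.7 in the thoracic pool (0.01 ± 0.03).

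**Figure D2:**
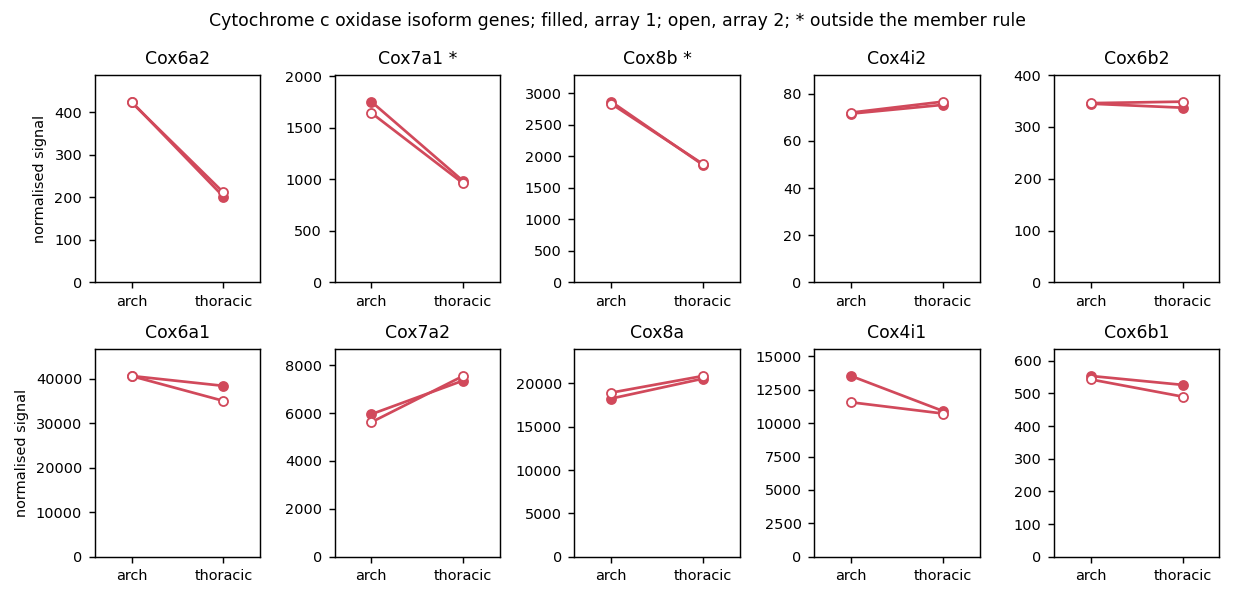
Normalised signal (linear, from 0, each panel on its own scale) of complex IV isoform genes in the arch pool (left) and the thoracic pool (right), with array 1 filled and array 2 open. Cox6a2, Cox7a1 and Cox8b, the forms known from muscle, are higher in the arch pool on both arrays, and Cox7a2, Cox8a and the dim Cox4i2 are lower. The common forms Cox4i1, Cox6a1 and Cox6b1 are also higher on both arrays, by less than 1.2-fold in the mean. The panels give no order between genes.

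Ndufa4, Cox7a2l and Cox7b had lower arch signals without passing the rule. Ndufa4, first purified with complex I and since assigned to complex IV, had 16149.3 and 16265.9 in the arch pool, against 18940.4 and 18228.5 in the thoracic pool (-0.20 ± 0.05). Cox7a2l, a relative of subunit VIIa that links complexes III and IV, had 2493.4 and 2630.7 in the arch pool, against 2908.3 and 2950.9 in the thoracic pool (-0.19 ± 0.04). Cox7b, a small membrane subunit, had 7569.2 and 6849.7 in the arch pool, against 8717.4 and 9235.7 in the thoracic pool (-0.32 ± 0.16), and its 2 further probes gave -0.09 and 0.04.

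Part of the heart muscle and brown fat markers were higher in the arch pool, as Cox6a2, Cox7a1 and Cox8b were. Most skeletal muscle markers were not higher, but all of them except Acta1 were dim. Of 8 heart muscle markers, 5 passed the 2-fold rule, all higher in the arch pool: Myl7 (3.65 ± 0.12), Tnnt2, Sln, Tnni3 and Myl4. The others, Actc1, Nppa and Myh6, had 0.17, 0.04 and -0.05. Over all 8 the summed signal was 27956.7 and 30697.6 in the arch pool, against 22800.5 and 20864.1 in the thoracic pool. Most of it was Actc1, with 21182.7 and 24040.0 in the arch pool, against 21108.5 and 19110.7 in the thoracic pool. Of 6 brown fat markers, 4 rose by the 1.2-fold rule (Dio2 1.12, Zic1 0.55, Cidea 0.54 and Ucp1 0.53), while Prdm16 had -0.07 and Elovl3 -0.32. Their summed signal was 14784.2 and 13951.7 in the arch pool, against 9322.2 and 9091.4 in the thoracic pool. Of 6 skeletal muscle markers, 1 rose, Myh4 at 0.70, and the list's median was -0.04. Of 6 white fat markers, 1 fell by the same rule, Retn at -0.47, and Cfd had -0.35, Adipoq -0.16, Lep 0.02, Plin1 0.11 and Pnpla2 0.22. Their summed signal was 28073.0 and 27074.0 in the arch pool, against 31869.1 and 32957.9 in the thoracic pool. Feature Extraction called each marker of these lists well above background in both pools on at least 1 array, but some were dim, among them Zic1 with 103.8 and 110.5 in the arch pool, against 71.9 and 74.0 in the thoracic pool. The part of such cells in the ratios of the complex IV genes was not tested.

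In complex V, 0 of 16 genes passed the 1.2-fold rule in either direction, the median was -0.02, and 8 genes lay on each side of 0. The 5 genes of F1, the catalytic head, had a median of 0.18 with 4 above 0. It was 0.11 on array 1, 0.23 on array 2, 0.08 with the median over probes and -0.00 with median centring. Atp5d, the delta subunit of the rotor, was the highest, with 1050.0 and 963.6 in the arch pool, against 845.5 and 819.5 in the thoracic pool (0.27 ± 0.06). Atp5c1, the gamma subunit that turns in the same rotor, was the lowest, with 19607.8 and 20111.6 in the arch pool, against 22107.9 and 22381.4 in the thoracic pool (-0.16 ± 0.01). The catalytic beta subunit gene Atp5b had 0.18 ± 0.10 (0.08 and 0.02 on its further probes), the alpha subunit gene Atp5a1 had 0.24 ± 0.09 and the epsilon subunit gene Atp5e had 0.01 ± 0.02.

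The 4 genes of the peripheral stalk, which holds the head still, had a median of -0.10 (-0.06 on array 1 and with the median over probes, and -0.28 with median centring), and the 6 genes of Fo and its neighbours in the membrane had 0.03. The sign of the Fo median turned with the setting: 0.03 on array 1, -0.02 on array 2, -0.00 with the median over probes and -0.09 with median centring. Among these 6 genes are 3 genes that encode the same mature c subunit of the membrane ring. Atp5g3 had 20160.0 and 20263.5 in the arch pool, against 17246.6 and 18165.7 in the thoracic pool (0.19 ± 0.05). Atp5g1 had 1411.0 and 1317.5 in the arch pool, against 1325.9 and 1217.3 in the thoracic pool (0.10 ± 0.02). Its second probe, with dim signals of 138.6 to 156.8, gave -0.03. Atp5g2 had 4853.7 and 4781.1 in the arch pool, against 5508.2 and 5243.6 in the thoracic pool (-0.16 ± 0.03). Of the 3, Atp5g3 and Atp5g2 thus differed in sign on both arrays, though with median centring Atp5g3 was level at -0.00 and Atp5g2 was -0.27.

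More than 1 probe was well above background for 21 genes. In 14 of the 21 all probes lay on the same side of 0, and in the other 7 they did not. Among these 7 is Ndufa7, an accessory subunit of complex I. Its 2 probes, each with signals of 2580 or more, gave -0.09 and 0.17. In 14 of the 21 all probes lay within 0.1 of each other on the log2 scale, a width about the size of a typical ratio here. The median spread was 0.06 and the largest was 0.39, at Ndufb8, whose second probe is dim. The 3 probes of Ndufs6, an accessory subunit of complex I, all lay between 0.08 and 0.09.

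The probes of these genes are bright. Of the 73, 58 lay in the brightest decile of all genes compared (2382 genes). Their median ratio was -0.09, against 0.02 for all genes of that decile, and 41 of the 58 lay below the decile's median. Below 0 were 37 of the 58, against 47.3% of the decile. Of the 58, 1 rose and 4 fell by the 1.2-fold rule, where 10.5% of the decile rose and 5.92% fell. Across the 73 genes the ratio and the brightness correlated with Pearson's r of -0.32 and Spearman's rho of -0.26, and with -0.22 and -0.23 without Cox6a2. These are descriptions across genes that share the same dyes and the same fitted curve.

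With median centring in place of loess, which leaves the curve of the dyes in, all 58 bright genes had a median of -0.23, but this was -0.58 on array 1 and 0.13 on array 2. All genes of the decile then had -0.08 (-0.40 on array 1 and 0.24 on array 2), and 42 of the 58 lay below that. The count of respiratory chain genes below the median of the brightest decile was thus similar under both settings, while their distance from 0 was not. The decile is wide and holds genes as far apart as Ndufs1 and Cox6a1 (1942.2 and 40655.5 in the arch pool on array 1). Genes matched more closely in brightness were not compared.

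**Figure D3:**
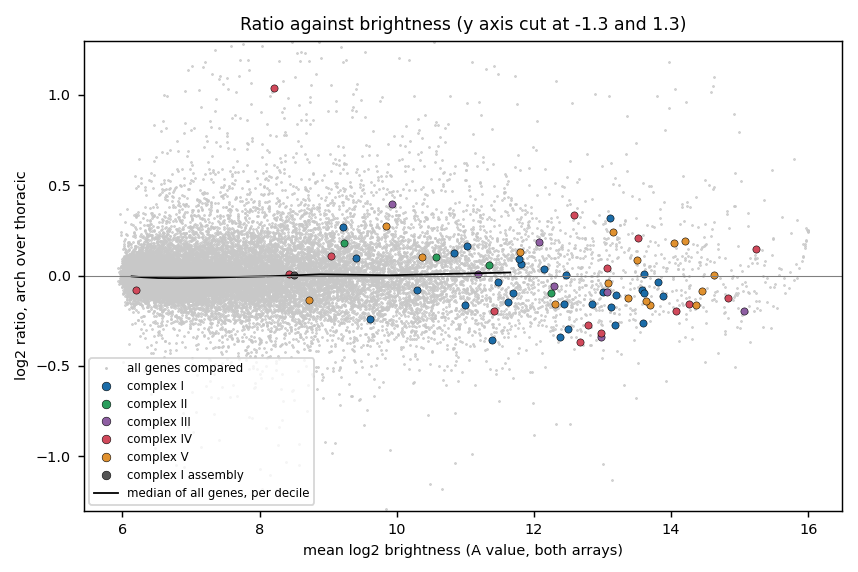
Mean log2 ratio of arch over thoracic against mean log2 brightness of the probe for all genes compared (grey) and the respiratory chain genes (coloured by complex), with the median of all genes per decile of brightness as a line that ends at the middle of the brightest decile. Most coloured points lie at the bright end, 41 of the 58 in the brightest decile below its median of 0.02, and Cox6a2 lies far above the rest.

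**Figure D4:**
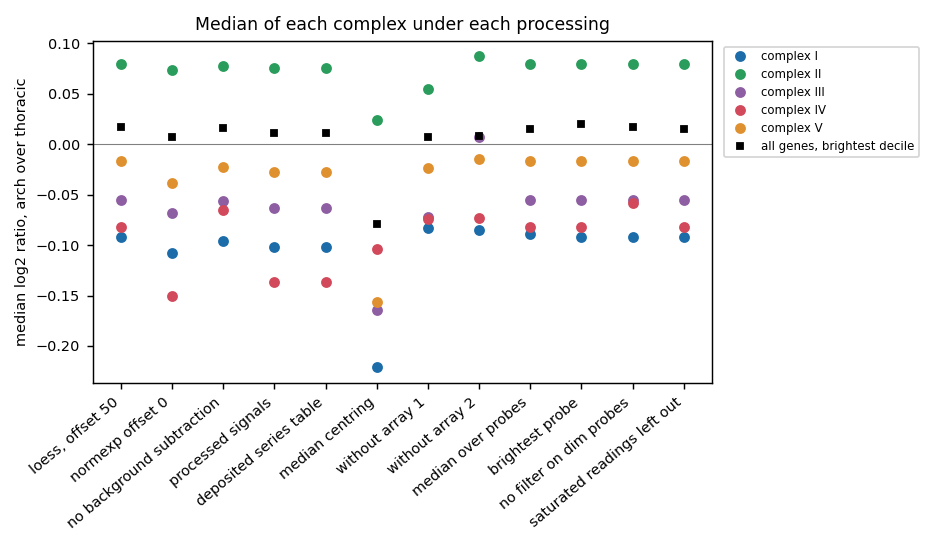
Median log2 ratio of arch over thoracic of each complex (circles) and of all genes in the brightest decile (squares) under the main processing (left) and 11 alternatives. Complex II lies above 0 and complexes I, IV and V below 0 under each of them, complex III is above 0 without array 2, and median centring moves every complex down.

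Genes that work with the chain were measured from a list of 65, of which 54 had a probe, 53 could be compared and 52 had no saturated reading. Of the 52, 2 rose and 1 fell by the 1.2-fold rule, 0 passed the 2-fold rule, and the median was 0.03. Tfam, which packs and transcribes mitochondrial DNA, had 5127.2 and 5786.5 in the arch pool, against 3751.2 and 4004.9 in the thoracic pool (0.49 ± 0.06). Tfb2m, a transcription factor for the same genome, had 537.1 and 547.4 in the arch pool, against 695.5 and 710.9 in the thoracic pool (-0.37 ± 0.00). Etfa, a subunit of the flavoprotein that brings electrons from fat oxidation, had 3990.3 and 4002.7 in the arch pool, against 3294.5 and 3233.7 in the thoracic pool (0.29 ± 0.02). Cycs, cytochrome c, which takes electrons from Cyc1, had -0.08 ± 0.02, and Ppargc1a, a coactivator of mitochondrial genes, had -0.05 ± 0.04.

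By group, the 11 citric acid cycle genes had a median of 0.15 with 8 above 0 and 0 past the rule (0.07 with median centring), the 14 assembly and haem genes -0.01, the 8 carriers and entry points 0.06, the 6 transporters 0.04 and the 10 regulators 0.03. Of the chain subunits encoded in mitochondrial DNA, 3 were compared without saturation. Their ratios were above 0 but uneven between arrays: mt-Nd4 of complex I had 0.32 ± 0.20, mt-Cytb of complex III 0.21 ± 0.08 and mt-Atp6 of complex V 0.27 ± 0.27. None of the 3 passed the 1.2-fold rule, and their median was 0.15 on array 1, 0.46 on array 2 and 0.07 with median centring.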

How the data were processed

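Two-colour arrays of 2 RNA pools were used. The deposited scanner tables hold intensity values per spot, not normalized, and per the file headers the software was Feature Extraction 8.1.1.1 (9.1.1.1 per the submitters' processing notes). The deposited log10 ratios of the series table correlated at 1.00 with the scanner's log ratio on both arrays once turned to arch over thoracic. The sources used here do not give the genome build behind the probes.

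In limma 3.58.1 (R 4.3.3; Python 3.11.15 for the counts), mean signals were background-corrected by normexp with an offset of 50, then normalized within arrays (loess, controls at weight 0) and, for signals per pool, by Aquantile. Outlier spots (8 and 5) were left out, spots of 1 probe averaged, array 1 turned and both arrays averaged. Genes went by the files' names. The RefSeq table matched 71 of the 74 by accession and 3 by symbol, and 3 have another current symbol (Atp5f1, Atp5s and Uqcr). The background correction, the loess step and the turning of array 1 were tested on simulated data, with changes in brighter probes only. The choice of probes and the signals per pool were not tested in this way. Rules of size replaced tests, as there is 1 pool per segment. Text values were planned for genes past the 1.2-fold rule, the highest and lowest of each complex, Sdha to Sdhd and the isoform sets. Values of further genes are given outside this plan. Among them are Ndufs1, Ndufs6, Ndufs7, Ndufa7, Ndufa10, Ndufa2, the rest of complex III and the rest of F1. The genes and all lists were chosen with earlier results of these data known. In all, 11 alternatives were run: offset 0, no background subtraction, processed signals, the series table, median centring, each array left out, median over probes, brightest probe whatever its saturation, no filter on dim probes, and saturated readings left out. The plot by gene leaves out 1 gene, which is not reported here.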

Additional observations from a re-analysis of the deposited data

How the results depend on the processing

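The 3 genes that rose and the 4 that fell by the 1.2-fold rule did so under all alternatives but median centring, which kept 1 of the 3 (Cox6a2) and 0 of the 4; its counts were 1 higher and 1 lower. On a single array 4 to 7 genes passed as higher and 5 to 10 as lower. The count past the 2-fold rule was 0 with no background subtraction. The median of all 73 genes, -0.08, was -0.065 with no background subtraction, -0.18 with median centring, -0.0553 over all probes of a gene and -0.0571 to -0.038 on a single array. The median of complex I was -0.11 with offset 0, -0.10 with no background subtraction, -0.10 in the processed signals and in the series table, -0.22 with median centring, -0.089 over all probes and -0.085 to -0.0832 on a single array. Complex II had 0.0245 with median centring and 0.0549 to 0.0872 on a single array, and complex III had -0.16 with median centring and -0.0726 to 0.0074 on a single array. Complex IV had -0.15 with offset 0, -0.065 with no background subtraction, -0.14 in the processed signals and in the series table, -0.10 with median centring, -0.0584 with no filter on dim probes, which lets Cox8c in, and -0.0745 to -0.0734 on a single array. Complex V had -0.0386 with offset 0, -0.028 in the processed signals and in the series table, and -0.16 with median centring. Among the 28 genes planned for text values the sign turned with at least 1 alternative at Atp5g3, Cox6a1, Cox6b2, Sdhb and Ndufaf1. None of these passed a rule. Median centring leaves the dyes' curve in, but the cause of these shifts, with this setting or the others, was not tested. No paired analysis was possible because both arrays hold the same pools. Dim probes are pulled towards 0 by the offset and by unspecific signal, which bears on Cox4i2 most, and no value here measures the spread between mice.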
